A study of Drosophila melanogaster with 60 samples.

Results

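Brains of Drosophila melanogaster males were profiled for RNA polymerase II with CUT&RUN, and the males compared here carried mutations in fruitless (fru) or were wild type of the Canton-S strain (CS). CUT&RUN uses an antibody to bring a nuclease to a chromatin protein in situ, and the DNA that the nuclease releases is sequenced. The comparison was defined by the labels and used 12 of the 60 libraries of the series, 6 from fru males and 6 from CS males. In each genotype 3 libraries came from group-housed (GH) males and 3 from single-housed (SH) males, and each RNA polymerase II library pooled 30 brains. The fru males had the genotype w+/Y; +/+; fruLexA/4-40, which combines 2 different mutant alleles of the gene. The other 18 RNA polymerase II libraries came from mutants of the pheromone receptor genes Or47b (w+/Y; Or47b2/3;+/+) and Or67d (w+/Y; +/+; Or67dGAL4/GAL4) and of doublesex (w-/Y; +/+; dsxf00683-d07058/f01649-d09625), again 3 libraries per housing and genotype. These 18 libraries entered the estimate of the spread and are given for comparison where they bear on a result. H3K4me3 was mapped in the same groups, with 3 libraries of 15 brains each per group.

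fruitless encodes a family of BTB zinc-finger transcription factors. Transcripts from its most upstream promoter are spliced differently in the sexes, and the male-specific proteins made from them act in a subset of neurons to establish courtship and aggression behaviour. The LexA allele is known as an insertion of a transcriptional activator into the gene, and 4-40 is known as a chromosomal deletion at the locus. RNA polymerase II signal in CUT&RUN marks genes that are being transcribed or that hold paused polymerase near their starts, and the deposited peaks were wide enough that one peak often covered several genes. Signal here came from whole brains, in which fru-expressing neurons are a minority, so fewer cells of a type and less polymerase per cell cannot be told apart. Genotype and the genetic background of the flies cannot be told apart either.

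Each of the 12 fru and CS libraries held between 3007711 and 4544223 reads, and the deepest of the other 18 held 6459322, within the 21113 deposited peaks, once the scaling of the values was undone. Of these peaks 21076 had a mean deposited value of at least 10 over the 30 RNA polymerase II libraries and were tested. A deposited value is the read count of a peak divided by a factor for its library, so values are given below without a unit. Neuron, glia and other marker genes fixed in lists were measured in both genotypes, and their summed values overlapped. The 8 neuron markers (elav, nSyb, brp and others) summed to between 6651 and 8731 in CS libraries and to between 6446 and 7848 in fru libraries. Their medians were 7731 in CS and 6976 in fru. The corresponding ranges for 8 glial markers were 2962 to 3230 and 2923 to 3116. Markers of photoreceptors, muscle, fat body, hemocytes and the testis also had tested peaks, with summed values that overlapped between the genotypes. For muscle the medians were 2228 in CS and 2257 in fru. Whether the genotypes had equal cell content was not tested. None of the 7 marker lists had a member past the test on its strongest peak. The range from the 10th to the 90th percentile of log2 values separated 4 of the 30 libraries, CS SH replicate 1 and 3 libraries of the Or47b and Or67d mutants (4.75 to 4.77), from the other 26 (4.44 to 4.66). Counts are therefore also given with the spread estimated without the 3 mutant libraries, and without CS SH replicate 1.

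Few peaks differed between fru and CS brains. Of the 21076 peaks tested, 220 (1.04%) differed at an adjusted p below 0.05 in limma, 118 of them higher in fru (0.56%) and 102 lower (0.484%). The median change of all tested peaks was 0.00 on the log2 scale, and the median standard error of a change was 0.136. Higher peaks had a median change of 1.07, and lower peaks one of -0.74. A change of more than 2-fold was found at 87 peaks (0.413%), of which 62 were higher and 25 lower. At 162 of the 220 peaks the 6 fru libraries lay on one side of all 6 CS libraries, against 368 of all tested peaks (1.75%). Without the 3 mutant libraries of wide spread 441 peaks were called, and without CS SH replicate 1 the count was 180.

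**Figure D1:**
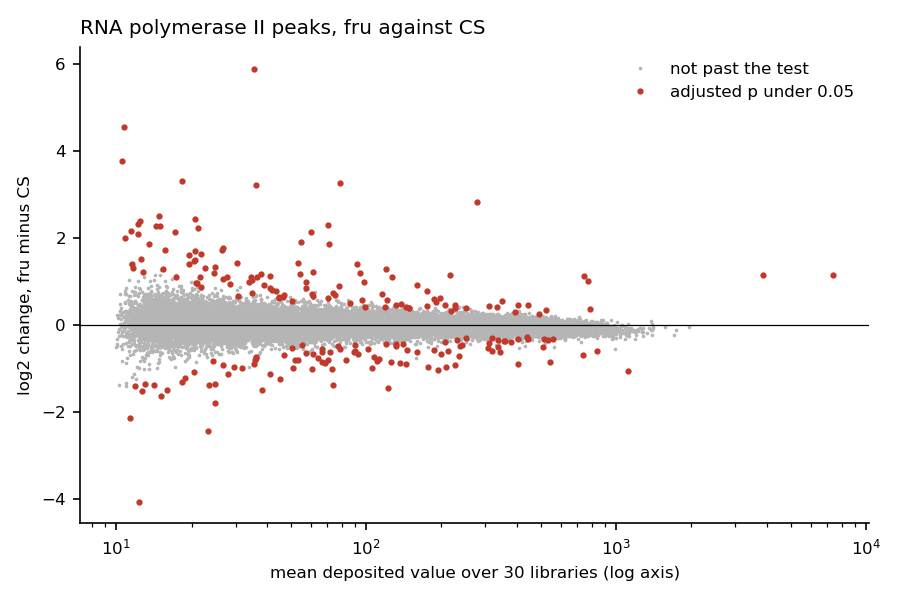
RNA polymerase II change between fru and CS brains, log2 scale (vertical axis), against the mean deposited value over 30 libraries (horizontal log axis), with 1 point per tested peak and the 220 peaks past the test coloured. Most of the 118 higher peaks were weak ones, while the 102 lower peaks were spread over the whole range.

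The directions differed with peak strength. Among the 5269 weakest tested peaks 44 were higher and 20 lower, and among the 5269 strongest 14 were higher and 22 lower. The median change over the same sets of peaks, called or not, was 0.05 in the weakest and -0.04 in the strongest. No annotated gene span was overlapped by 98 of the 220 called peaks, which is 44.5% of them, compared with 19.4% of all tested peaks. Of the 220, 52 lay on unplaced, ribosomal DNA or mitochondrial sequence. The mitochondrial peaks were assigned no gene either, so a peak over no gene can also lie on sequence whose name the gene annotation lacks. The share of peaks called also varied by chromosome. Unplaced sequence held 46 called peaks of 269 tested (17.1%), 35 of them higher. On 2R the first 5 Mb held 26 of the 47 called peaks of that arm, with 633 tested there (4.11%). On 3R 39 of 4335 tested peaks were called (0.90%), 29 of them lower. Of these lower peaks 9 lay from 5 to 10 Mb and 11 from 15 to 20 Mb. These bins hold the regions of Nlg3 and Nlg1 and of fru described below. On X 26 of 4819 were called (0.54%), 20 of them lower, and on Y 5 of 67 (7.46%), all higher.

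The fru gene itself carried less polymerase over the end of its span with the higher coordinates. The annotated span of fru overlapped 14 tested peaks on 3R. The strongest one, from 18545132 to 18547416, had deposited values of 814 to 1419.5 (median 1144) in the 6 CS libraries and 479 to 694 (median 514) in the 6 fru libraries. The groups did not overlap, and all 18 libraries of the other mutants were above the fru libraries too, at 859.8 to 2444. The mean fell from 1122 ± 214 to 538 ± 79.5 (SD, n = 6 each), a log2 change of -1.05 (95% interval -1.49 to -0.60, adjusted p = 0.00715, limma). The fru mean was thus 47.95% of the CS mean.

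A second fru peak, from 18507619 to 18514006, ranged over 220.5 to 239.7 (median 230.2) in CS and over 84.4 to 141 (median 123) in fru. Its change was -0.97 (SE 0.0875, adjusted p = 6.42e-09). The third, from 18484274 to 18487891, had 104 to 128 (median 119) in CS and 49.9 to 76.5 (median 57.3) in fru, a change of -0.97 (SE 0.101, adjusted p = 1.28e-07). At both peaks every fru library lay below every other RNA polymerase II library, and the remaining signal was 51.4% and 50.9% of the CS mean. The other 11 fru peaks, which ran from 18415868 to 18483179 on the side of the lower coordinates, did not pass the test. Their log2 changes lay between -0.25 and 0.18. The largest decrease among them was at the peak from 18463785 to 18466836 with -0.25 (adjusted p = 0.486), and the peak nearest to those that fell, from 18473453 to 18483179, had -0.18 (adjusted p = 0.398). The first peak to pass began at 18484274 in the deposited coordinates, and where within or before it the lower signal begins was not resolved.

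Less polymerase was also found beyond fru, over the neighbouring genes CG7691, hemo, fray and CG7694. fray encodes a protein kinase needed for the wrapping of nerves by glia, and hemo encodes Hemotin, a regulator of phagocytosis in blood cells. A peak over CG43210, hemo, fray and CG7694, from 18563901 to 18577105, had values of 571 to 633 (median 591) in CS and 297 to 375 (median 333) in fru. These ranges did not overlap each other, and the 18 libraries of the other mutants were at 499 to 667. The change was -0.84 (SE 0.0653, adjusted p = 2.47e-10), which left 55.8% of the CS signal. This was the central one of 5 neighbouring tested peaks between 18556445 and 18582441 that all fell, the only run of at least 5 peaks called in one direction on any chromosome. The peak over CG7691, from 18560145 to 18562269, fell by a log2 change of -0.87 (adjusted p = 1.86e-05). The remaining 3 peaks of the run changed by -0.80, -0.63 and -0.61 (adjusted p = 0.0079, 0.00948 and 0.0108). One of them, from 18577831 to 18579463, lost its call without CS GH replicate 2 (adjusted p = 0.0511).

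Beyond the run, 2 more peaks over fray and CG7694 did not pass the test. These peaks, from 18583001 to 18584790 and from 18585375 to 18588583, changed by -0.27 and 0.18 (adjusted p = 0.481 and 0.486). Between fru and the run lay 2 further peaks over no gene. The first, from 18548594 to 18549168, had a change of -0.90 with an adjusted p of 0.0454, and kept its call only without CS SH replicate 3 among the 12 ways of leaving out 1 library (highest adjusted p = 0.18). The second, from 18554829 to 18555890, did not pass (change -0.39, adjusted p = 0.545). The called peaks from fru to the end of the run spanned 18484274 to 18582441, and the fru mean at each of them lay between 47.9% and 64.7% of the CS mean. Input DNA is not among the data used here, so fewer copies of this DNA and less polymerase per copy cannot be told apart.

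**Figure D2:**
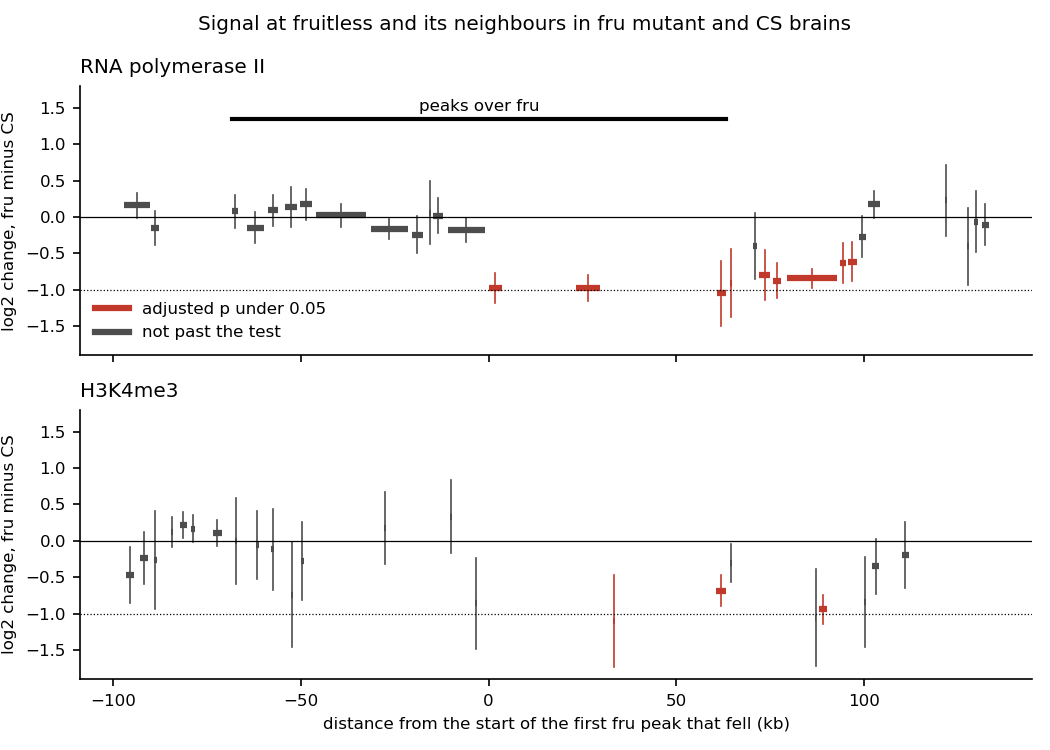
Log2 change between fru and CS brains along fru and its neighbours, RNA polymerase II above and H3K4me3 below, against distance in kb from the start of the first fru peak that fell. Each thick line is 1 tested peak drawn to its length, thin lines are 95% intervals, coloured peaks had an adjusted p below 0.05, and the dotted line marks a log2 change of -1. Peaks to the left lie around 0, and a block from the fru peaks that fell to the fray peaks lies between 0 and the dotted line or near it.

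H3K4me3, a histone mark of the starts of transcribed genes measured in separate libraries, fell in the same block. Its peak at the same end of fru, from 18544985 to 18547433, went from 303 ± 39.1 to 190 ± 36.4 (SD, n = 6 each), a log2 change of -0.69 (adjusted p = 2.9e-06). The peak over fray and CG7694, from 18572312 to 18574432, went from 418 ± 51.4 to 217 ± 28.8, a change of -0.94 (adjusted p = 4.03e-12), and its groups did not overlap. A weak H3K4me3 peak inside fru, from 18517537 to 18517981, changed by -1.11 (adjusted p = 0.0414). Within the same block 2 other H3K4me3 peaks, from 18548585 to 18549207 and from 18571294 to 18571570, did not pass (changes -0.31 and -1.06, adjusted p = 0.242 and 0.0743). No H3K4me3 peak over the 11 fru peaks whose polymerase change did not pass was called either, and the lowest of their changes was at a weak peak from 18480747 to 18481073, inside the polymerase peak nearest to those that fell (22.9 ± 4.64 in CS and 13.6 ± 7.99 in fru, log2 change -0.86, adjusted p = 0.154).

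A region of 3R with a pair of neuroligin genes held another group of neighbouring peaks that fell. Nlg3 and Nlg1 encode neuroligins, adhesion proteins of the postsynaptic membrane that bind neurexin across the synapse. All 8 called peaks between 7637963 and 7720979 were lower in fru, at 58.7% to 69.3% of the CS mean. The region was singled out after its values were seen. Its bounds are those of called lower peaks, so the shared direction restates that choice. The peak at the start of this region, over Nlg3 (from 7637963 to 7641272), had values of 244 to 291 (median 264) in CS and 138 to 223 (median 153) in fru. The groups did not overlap, and the change was -0.71 (SE 0.122, adjusted p = 0.000642). Over Nlg1 the strongest peak, from 7678064 to 7685428, had 287 to 323 (median 315) in CS and 189 to 275 (median 204) in fru, a change of -0.54 (SE 0.071, adjusted p = 1.29e-05). Every fru library was below the 18 libraries of the other mutants at this peak (285 to 399.5).

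The other 3 called Nlg1 peaks fell as well. The peak from 7689116 to 7694109 changed by -0.67 (adjusted p = 0.000113). At the peak from 7686135 to 7688732 the change was -0.61 (adjusted p = 0.0113), and without fru GH replicate 3 or fru SH replicate 1 it did not pass (highest adjusted p = 0.0566). The weak peak from 7659308 to 7660783 changed by -0.80 (adjusted p = 0.0396) and kept its call only without CS SH replicate 1, fru GH replicate 1 or fru SH replicate 1 (highest adjusted p = 0.151). Between the genes, 2 peaks over no gene changed by -0.60 and -0.59 (adjusted p = 2.93e-05 and 0.000997). A further peak over no gene, from 7713892 to 7716210, did not pass (change -0.66, adjusted p = 0.0508). The region ended at lncRNA:CR44260, which changed by -0.57 (adjusted p = 0.000515), and the next peak, over CG2616, changed by 0.00 (adjusted p = 0.994). The H3K4me3 peak at Nlg3 fell from 890 ± 77.9 to 638 ± 115 (log2 change -0.50, adjusted p = 0.000148).

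Both Nlg genes belong to a list of 42 measured axon guidance and adhesion genes, and no other member passed on its strongest peak. For the fru gene the Or47b, Or67d and dsx mutants had means of 1499 ± 684, 1362 ± 546 and 1051 ± 181 at the strongest peak, against 1122 ± 214 in CS. At the strongest Nlg1 peak the same mutants had 321 ± 28.7, 330.3 ± 11.03 and 354 ± 29.6, against 309 ± 14.9 in CS. The difference between fru and the mean of the 3 other mutants, in which CS takes no part, was -1.20 at the fru peak and -0.65 at the Nlg1 peak (adjusted p = 4.51e-05 and 2.53e-09). Over all tested peaks that difference passed at 277 (1.31%), 150 of them higher in fru (0.712%) and 127 lower (0.603%).

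At 26 of the called peaks all 6 fru libraries lay beyond all 24 other RNA polymerase II libraries, 11 above and 15 below, as did 29 of all tested peaks (0.138%). These peaks were singled out after their values were seen. They included the fru, fray and Nlg1 peaks above and single genes on other arms.

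Cip4, which encodes an F-BAR protein that links membranes to actin assembly, lost signal over part of its span on 3L. The peak from 4355703 to 4360674 had values of 192 to 240.5 (median 215) in CS, 96.8 to 111 (median 103) in fru and 189 to 240.4 in the other mutants. Every fru library was lower than any other, and the change was -1.04 (SE 0.0754, adjusted p = 6.25e-11). The adjacent peak from 4351597 to 4354792 had 174 to 215 (median 185) in CS and 80.5 to 107 (median 99.6) in fru (change -0.95, adjusted p = 1.41e-06). The other Cip4 peaks on either side had changes between -0.13 and 0.01. An H3K4me3 peak within the same stretch, from 4351790 to 4354517, fell from 68.0 ± 4.33 to 44.6 ± 9.07 (log2 change -0.62, adjusted p = 0.0156). Inside the stronger polymerase peak 2 H3K4me3 peaks changed by -0.49 and -0.47 without passing (adjusted p = 0.267 and 0.333).

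TwdlV, a gene of the Tweedle family of cuticle proteins, carried less polymerase on 3R, at the peak from 4253519 to 4256249. Its values were 109.8 to 150.2 (median 143) in CS and 51.7 to 93.4 (median 77.1) in fru, which did not overlap, and the change was -0.85 (adjusted p = 9.11e-06). The H3K4me3 peak inside it fell further, from 26.7 ± 11.2 to 3.52 ± 3.26 (log2 change -2.84, adjusted p = 3.03e-10). The neighbouring peaks over TwdlF and TwdlG and over Or82a changed by 0.14 and -0.17 and did not pass (adjusted p = 0.585 and 0.705). At ry, the gene of xanthine dehydrogenase, an enzyme of purine breakdown and eye pigment synthesis, the polymerase peak from 13032301 to 13037752 had 303 to 392.1 (median 319.8) in CS and 188 to 307 (median 241) in fru. These ranges overlapped, the change was -0.50 (adjusted p = 0.0148), and the call was lost without CS GH replicate 1, CS SH replicate 1, fru GH replicate 3 or fru SH replicate 2 (highest adjusted p = 0.0888). H3K4me3 at ry went from 51.0 ± 15.7 to 4.69 ± 4.21 (log2 change -3.56, adjusted p = 3.11e-16), with no overlap between the groups. The ry polymerase peak was not among those with every fru library beyond all other libraries. It was named after its values were seen.

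Signal rose at bol, which encodes the RNA-binding protein Boule, known for its role in meiosis of the male germ line. The peak from 9099617 to 9106497 on 3L had values of 158 to 179 (median 167) in CS, 329 to 431 (median 382) in fru and 155 to 212 in the other mutants. The 6 fru libraries were the highest of the 30, and the change was 1.15 (SE 0.0789, adjusted p = 1.95e-11). The other peaks over bol did not pass. H3K4me3 rose within the same peak, from 10.04 ± 2.37 to 37.1 ± 7.84 (log2 change 1.79, adjusted p = 2.07e-05). Another H3K4me3 peak of bol, from 9127096 to 9128099, rose by 0.54 (adjusted p = 0.00137), but there polymerase changed by -0.08, Or67d and dsx mutants stood at 0.59 and 0.68 relative to the same CS libraries, and fru differed from the other mutants by 0.02 (adjusted p = 0.956). Of 6 testis and gonad markers 5 had a tested peak, their summed values were 2032 to 2284 in CS and 1920 to 2213 in fru, and their part in the bol result was not tested.

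At 3 further regions the fru libraries were above all other libraries. Ugt50B3, a UDP-glycosyltransferase gene, had values of 46.3 to 93.97 (median 85.7) in CS and 124 to 186 (median 149) in fru at the 2R peak from 5533561 to 5535265 (change 0.99, adjusted p = 3.68e-05), and H3K4me3 there changed by 0.75 without passing (adjusted p = 0.0835). Flo2, which encodes the membrane scaffold protein flotillin, shared a peak with Eo on X, from 14916758 to 14918793, that had 57.8 to 72.9 (median 65.3) in CS and 106 to 139 (median 125) in fru (change 0.90, adjusted p = 2.87e-05). A broad peak on 3R over jvl, btsz and what lies between them, from 14793461 to 14805523, had 700.0 to 809 (median 741) in CS and 906 to 1032 (median 968) in fru (change 0.38, adjusted p = 0.000106), the smallest change among those beyond all 24 libraries. Of the 3 H3K4me3 peaks inside it, the one from 14796217 to 14798348 rose from 50.6 ± 12.1 to 97.8 ± 22.7 with no overlap (log2 change 0.94, adjusted p = 0.000114), and the other two changed by -0.21 and 0.01 (adjusted p = 0.657 and 0.99).

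**Figure D3:**
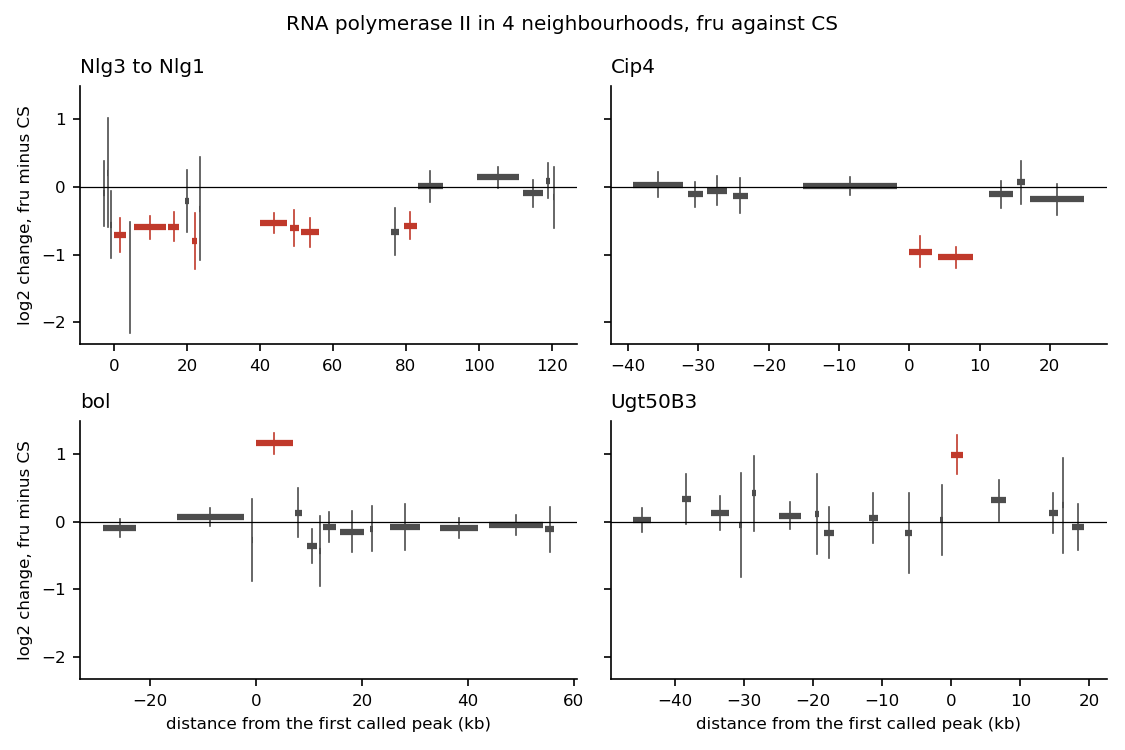
Log2 change in RNA polymerase II between fru and CS brains around Nlg3 and Nlg1, Cip4, bol and Ugt50B3, against distance in kb from the first called peak. Each thick line is 1 tested peak drawn to its length with its 95% interval, and coloured peaks had an adjusted p below 0.05. The Nlg panel shows a group of lower coloured peaks with uncalled peaks among them. The other panels show 1 or 2 coloured peaks among uncalled neighbours, not all near 0 (-0.36 at the bol peak from 9109254 to 9111071).

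**Figure D4:**
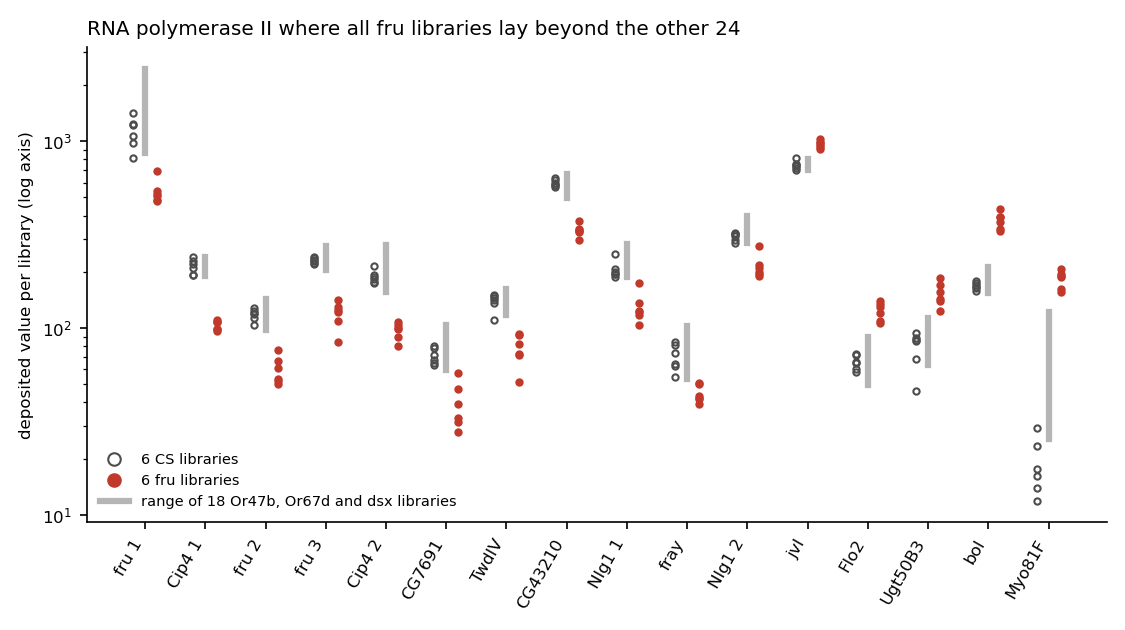
Deposited values (log axis) at the called peaks over genes where all 6 fru libraries lay beyond the other 24, for CS (open circles), fru (filled circles) and the range of the 18 other mutant libraries (bars). Peaks are ordered by change, from fru and Cip4, whose fru libraries lie below the others, to bol and Myo81F, whose fru libraries lie above them.

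The largest increase over a gene on a placed chromosome, among peaks with signal in CS, was at Myo81F, a myosin gene in the heterochromatin next to the centromere of 3R. The peak from 2085309 to 2089199 had values of 11.9 to 29.1 (median 16.9) in CS and 155 to 206 (median 188) in fru, with no overlap. The change was 3.27 (SE 0.181, adjusted p = 1.24e-13). The other mutants stood between these groups, with means of 38.7 ± 11.4 in Or47b, 60.4 ± 8.23 in Or67d and 93.4 ± 17.8 in dsx. H3K4me3 rose there as well, from 5.96 ± 2.30 to 33.8 ± 6.91 (log2 change 2.36, adjusted p = 8.6e-07). At hbt on 2L all 6 CS libraries had a value of 0 at the peak from 13326604 to 13326807, while the fru libraries had 15.3 to 35.8 (median 22.95). Against a floor of 3 reads per CS library the fru mean was at least 8.06-fold higher. Averaged over all RNA polymerase II libraries this peak had 10.77, little above the minimum mean for testing. It reached that minimum only with the fru libraries, whose mean was 23.45, so its entry into the test was not independent of the increase. In the dsx mutant the mean was 22.1 ± 4.61, in Or67d 8.03 ± 1.9 and in Or47b 0.224 ± 0.548.

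At several of the largest increases the other mutants also differed from CS in value. These comparisons share the CS libraries, so the values are given side by side. At Ir41a, which encodes an olfactory receptor of the ionotropic family, the peak from 4960053 to 4962795 had a mean of 18.6 ± 5.88 in CS and 82.8 ± 8.81 in fru (change 2.14, adjusted p = 3.05e-10). Or47b and dsx mutants had 82.7 ± 16.5 and 82.3 ± 13.8 there, and Or67d had 34.2 ± 10.9. The difference between fru and the other mutants was 0.45 (adjusted p = 0.158). A peak over no gene on 2R, from 5023772 to 5024509, was at 0 in every CS library. In fru it ranged over 1.92 to 9.31 (median 3.99), with higher means in all 3 other mutants (26.4 ± 6.63, 13.6 ± 6.01 and 28.5 ± 7.01). By the same floor the fru mean of 5.28 was at least 1.82-fold higher, but the lowest fru value was under the floor value of 2.91. This peak met the minimum mean for testing only through the other mutants, as the CS and fru means were both below it. At CheB38a, of a family of proteins of gustatory and olfactory organs, the mean rose from 6.01 ± 2.68 to 20.9 ± 1.79 (change 1.74, adjusted p = 0.00049) and was 25.8 ± 5.38 in Or47b, 3.44 ± 2.95 in Or67d and 22.03 ± 3.66 in dsx.

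A pair of peaks at mthl8, a gene of the methuselah-like family of G protein-coupled receptors at the low coordinates of 3L, rose by 1.23 and 0.91 (adjusted p = 0.00472 and 0.00597). In the stronger one CS had 93.6 to 183 (median 125) and fru 203 to 278 (median 239), while the Or67d mean was 0.472 ± 0.786 and the dsx mean 245 ± 20.8. Mekk1, a kinase gene of the stress response, rose from 9.995 ± 5.05 to 30.99 ± 9.55 at a weak peak on 3R (change 1.61, adjusted p = 0.00122) and was 28.6 ± 8.97 in Or67d. The 3 neighbouring peaks over no gene between 4276657 and 4280980 on 2R rose by 2.44, 2.00 and 2.09 (adjusted p = 9.56e-05, 0.0143 and 4.69e-05). In the Or47b mutant their means were 0.429 ± 0.483, 0.661 ± 0.826 and 0, below the CS means of 9.42 ± 5.41, 6.37 ± 3.05 and 7.96 ± 4.73. The middle one of these was not called without CS GH replicate 2, CS SH replicate 2 or fru SH replicate 1 (highest adjusted p = 0.062). The remaining large increases with separate groups lay over no gene on 2L (2.23), 2R (1.51), 4 (1.86) and Y (2.15 and 1.73), and over l(3)80Fg on 3L (1.76). The 2R peak of these, from 5057204 to 5057954, was not called without CS SH replicate 2 or fru SH replicate 3 (highest adjusted p = 0.0723).

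Among the largest decreases, a peak over no gene on X, from 20187697 to 20188177, had values of 11.9 to 23.03 (median 17.9) in CS, whereas 5 of the 6 fru libraries were at 0 and the other at 0.958. It was called in limma (adjusted p = 2.57e-11), and the dsx mutant was at 0 in every library as well. On 2R the peak from 2687850 to 2693541, also over no gene, had 109 to 147 (median 133) in CS and 24.97 to 74.5 (median 47.6) in fru (change -1.44, adjusted p = 3.61e-07), below all other mutants (99.95 to 174). At lola, which encodes BTB zinc-finger factors of axon guidance and neuronal identity, 1 of its tested peaks fell, from 10485196 to 10485766, with 91.5 to 140.2 (median 130.1) in CS and 41.5 to 53.6 (median 47.7) in fru. The change was -1.37 (adjusted p = 1.33e-06). Or47b, Or67d and dsx mutants had means of 71.02 ± 15.02, 84.8 ± 24.01 and 39.8 ± 8.33 there, and the difference of fru from them was -0.36 (adjusted p = 0.34). H3K4me3 at this lola peak fell by a log2 change of -1.12 (adjusted p = 0.000381).

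Peaks at yellow (y), a gene of melanin pigmentation and of male courtship, changed by -1.23 and -0.92 (adjusted p = 5.57e-05 and 0.00813). The first of them, shared with CG32816, ranged over 64.1 to 98.4 (median 73.8) in CS and 25.9 to 48.2 (median 30.6) in fru. The means in Or67d and dsx were 32.5 ± 10.6 and 32.1 ± 7.62 at the same peak, and the difference of fru from the other mutants was -0.22 (adjusted p = 0.814). Near it the peak over CG32816 and CG43182 fell by a log2 change of -1.36 (adjusted p = 0.000114). Ser6 and CG1304, neighbours on X of which Ser6 encodes a serine protease, changed by -2.13 and -1.50 (adjusted p = 0.00050 and 0.0131), with weak CS signal of 12.1 ± 3.45 and 16.6 ± 4.44. CG1304 lost its call without fru GH replicate 2 or fru SH replicate 3 (highest adjusted p = 0.0644). Ac13E, an adenylyl cyclase gene, changed by -1.52 (adjusted p = 0.000133), from 13.6 ± 3.09 to 4.35 ± 2.16.

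lncRNA:flam, the flamenco cluster of small RNAs that silence transposons in ovarian cells, had 39.4 to 63.4 (median 41.3) in CS and 12.3 to 30.005 (median 20.4) in fru (change -1.13, adjusted p = 0.000472). lncRNA:CR46006 on 3L fell from 70.97 ± 9.51 to 35.9 ± 11.01 (change -1.01, adjusted p = 0.00404). Peaks over no gene on 2R, 3L and 3R changed by -1.37, -1.79 and -0.98 (adjusted p = 0.00199, 9.54e-05 and 0.00491). Another peak of 2R over no gene, from 1635269 to 1638906, rose from 52.5 ± 13.3 to 103 ± 14.3, above all other libraries, but was not called without CS GH replicate 3, CS SH replicate 2 or fru GH replicate 3 (highest adjusted p = 0.0607).

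All 4 peaks of the mitochondrial genome were higher in fru, by 1.01 to 1.15 on the log2 scale. The strongest, from 1342 to 6143, had values of 2529.9 to 5447 (median 3545) in CS and 5713 to 11501 (median 8607) in fru (adjusted p = 0.0132). The other mutants had means of 7839 ± 3813 in Or47b, 8309 ± 3849.6 in Or67d and 8522 ± 1759 in dsx, and the difference of fru from them was 0.09 (adjusted p = 0.969). This call was lost without CS GH replicate 1 or fru GH replicate 3 (highest adjusted p = 0.0636), and the other 3 were called in 1, 4 and 9 of the 12 fits with 1 library left out. H3K4me3 peaks of the mitochondrial genome that overlapped these changed by 0.65, 0.54 and 0.85 (adjusted p = 0.0256, 0.0556 and 0.0271, limma). Whether the mitochondrial reads mark polymerase was not tested. Without input DNA, more copies of this DNA and more signal per copy cannot be told apart. Of 8 peaks in the ribosomal DNA sequence 2 were higher, the larger change being 1.90 (adjusted p = 2.07e-09), from 29.2 ± 8.56 to 109 ± 10.2.

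Genes of known neuronal and sexual functions were examined in 26 lists, next to the 7 marker lists. Over all 13212 genes with a tested peak, taking the strongest peak of each, 79 passed (0.598%), 28 higher (0.212%) and 51 lower (0.386%), and the median change was -0.02. Of the 595 listed genes with a tested peak, 5 passed, all lower. They were fru, Nlg1, Nlg3, Fmr1 and PK1-R. Fmr1, which encodes an RNA-binding regulator of translation at synapses, had values of 397 to 489 (median 446) in CS and 305 to 366 (median 344) in fru (change -0.38, adjusted p = 0.00472). The groups did not overlap, and the Or47b, Or67d and dsx mutants stood at -0.23, -0.20 and -0.34 relative to CS. PK1-R, a receptor for pyrokinin neuropeptides, had 232 to 295 (median 267) in CS and 163 to 261 (median 189) in fru, which overlap (change -0.45, adjusted p = 0.0111), and was not called without fru SH replicate 1 (adjusted p = 0.0613).

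In the sex determination list 1 of 12 measured genes, fru, passed, and the median change was -0.06. On strongest peaks no member passed among 28 measured courtship and aggression genes, 25 genes of dopamine, serotonin and octopamine signalling and 32 neuropeptide genes. Their medians were -0.06, -0.02 and 0.02. On any peak, 1 of the 28 courtship and aggression genes was called, lower in fru, against 143 of all 13212 genes with a tested peak. Lists of neuronal excitability had no member past the test on its strongest peak either. Their medians were -0.16 for 15 acetylcholine signalling genes, -0.13 for 14 sodium and calcium channels, -0.11 for 20 potassium channels and -0.09 for 27 genes of synaptic vesicle release. Chromatin and insulator genes had a median of -0.11 over 23 members. Glial, chemoreceptor and muscle genes had medians of 0.02, 0.02 and 0.03. The 8 neuron markers had a median change of -0.09 with 1 of 8 above 0, and the 8 muscle markers had a median of 0.13 with 7 of 8 above 0. The medians of the glia, photoreceptor, fat body, hemocyte and testis markers lay between -0.04 and 0.01. These medians rest on the strongest peak of each gene. Over all tested peaks, called or not, the median change was 0.05 in the 5269 weakest and -0.04 in the 5269 strongest. The parts of peak strength and of cell numbers in the list medians were not tested.

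On any of their peaks rather than the strongest, a few more listed genes were called. Of all 13212 genes with a tested peak, 143 had a called peak by this rule, under which genes with more peaks have more chances. Among 42 measured neuronal identity factors 2 were called on any peak, lower in fru. SK, a calcium-activated potassium channel gene, rose at a weak peak from 21.8 ± 5.48 to 41.9 ± 5.91 (SD, n = 6 each; log2 change 0.94, adjusted p = 0.0069), and DIP-lambda, of the immunoglobulin proteins that bind Dpr partners between neurons, rose at 2 peaks by 0.65 and 0.63 (adjusted p = 0.0312 and 0.0377). The nicotinic receptor subunit genes nAChRalpha4 and nAChRalpha5 fell at 1 peak each, by log2 changes of -0.43 and -0.45 (adjusted p = 0.029 and 0.0406). Slob, whose protein binds the Slowpoke channel, changed by -0.33 (adjusted p = 0.0206). Kdm5, a histone demethylase gene, changed by -0.31 (adjusted p = 0.0205) at a peak shared with Tsp26A. The neuronal gene elav shared a peak with svr and arg that changed by -0.34 (adjusted p = 0.0452).

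H3K4me3 provided a separate readout at the called polymerase peaks. A tested H3K4me3 peak overlapped 76 of the 220 by at least 1 bp, the strongest was taken where there were several, and at 67 of these (88.2%) the mark changed in the same direction as polymerase. Over all 8052 tested polymerase peaks with such an overlap the share was 45.4%. The mark passed its own test in the same direction at 32 of the 76, 14 of 35 higher and 18 of 41 lower peaks, and in the opposite direction at 0. These 32 include peaks on mitochondrial, ribosomal DNA and unplaced sequence. The mitochondrial H3K4me3 peak from 6968 to 8858 was counted at the polymerase peaks from 7062 to 7555 and from 8539 to 8858. Without input DNA, more copies of such sequence and more signal per copy cannot be told apart. Over all 8052 pairs the mark passed in the direction of the polymerase change at 141 and against it at 54. In the H3K4me3 table as a whole 320 of 14513 peaks passed (2.2%), 183 higher (1.26%) and 137 lower (0.944%). The readouts differed in size at some genes, which were named after their values were seen. Polymerase over nebu on 3L changed by -0.79 at its weaker called peak while H3K4me3 changed by -2.89, and for CG17528 on 2R the changes were -0.40 and -1.53. BckdhB, which encodes a subunit of the branched-chain keto acid dehydrogenase, rose by 0.71 in polymerase (adjusted p = 0.0151) and by 1.07 in H3K4me3 (adjusted p = 7.37e-08). At Fmr1, by contrast, H3K4me3 changed by 0.03 (adjusted p = 0.943).

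No peak passed the test of a difference in the fru effect between housings. Within group-housed males 75 peaks passed (0.356%), 38 higher (0.18%) and 37 lower (0.176%), and within single-housed males 88 passed (0.418%), 59 higher (0.28%) and 29 lower (0.138%). The GH count fell to 45 without CS GH replicate 1 and to 48 without CS GH replicate 2, and the SH count to 55 without CS SH replicate 3 and to 58 without fru SH replicate 1. The median standard error of a change was 0.192 within a housing, against 0.136 over both. The difference of the fru effect between the housings passed at 0 peaks in limma, with 686 at an unadjusted p below 0.05 (3.25%), and at 0 in edgeR and in DESeq2, with 641 and 537 at an unadjusted p below 0.05. All 220 peaks called over both housings had the same sign in each, although both housings enter the average that chose them. The strongest fru peak changed by -1.11 in GH and -0.99 in SH males, the peak over hemo and fray by -0.94 and -0.75, and the strongest Nlg1 peak by -0.60 and -0.47. At bol the changes were 1.18 and 1.12, and at the stronger Cip4 peak -0.98 and -1.09.

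**Figure D5:**
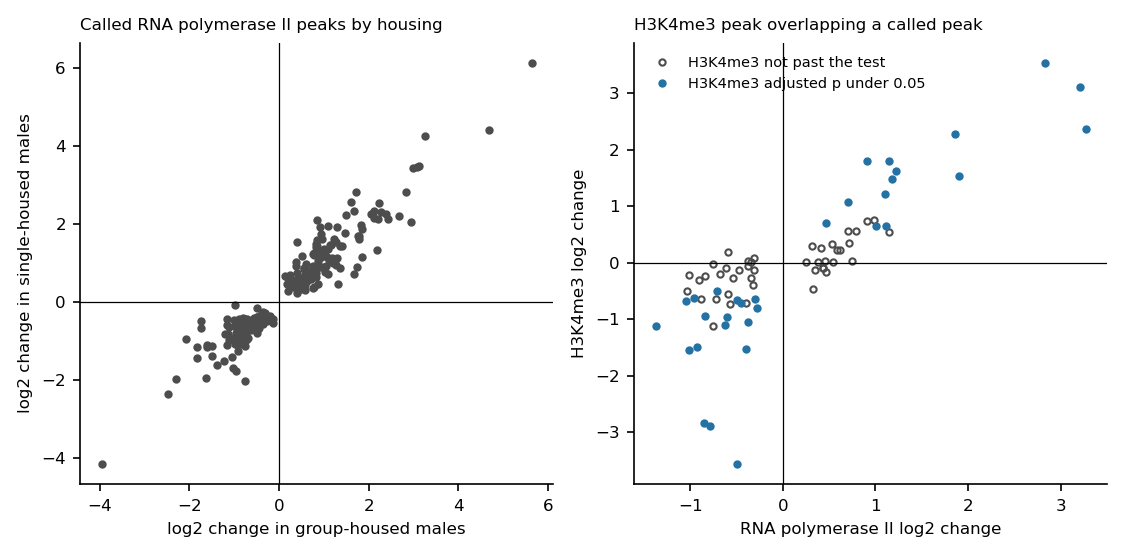
Left, log2 change of each called RNA polymerase II peak in group-housed (horizontal) and single-housed males (vertical). Right, log2 change of the H3K4me3 peak overlapping a called peak (vertical) against the RNA polymerase II change (horizontal), with H3K4me3 peaks past their own test filled. All 220 points on the left lie in the quadrants of equal sign, and 67 of 76 do so on the right.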

How the data were processed

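RNA polymerase II and H3K4me3 signal per peak was deposited by the authors as 1 table per antibody, in which reads per peak had been divided by a size factor per library. Trim Galore, Bowtie2, MACS2, DESeq2 and ChIPseeker were used, per the submitters' processing notes. No source used here names the genome build, and positions are those of the deposited tables. Genes were those whose spans a peak overlapped, with names from RefSeq's fly annotation. CS columns numbered 3 to 5 correspond to replicates 1 to 3 of the labels.

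The deposited values, as log2(value + 1), were tested with limma 3.58.1 in R 4.3.3 over all 30 libraries of an antibody as 10 group means, with a trended prior, two-sided and with Benjamini-Hochberg adjustment at 0.05. Fold changes on this scale understate those of weak peaks. Peaks needed a mean of at least 10. The contrast was the mean of fru GH and SH minus the mean of CS GH and SH. Reads were recovered as whole numbers (100% of values within 0.01 of a read) in 28 of 30 RNA polymerase II libraries, and edgeR 4.0.16 and DESeq2 1.42.0 were run on these as alternatives. The limma script was tested on simulated data.

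Named peaks were those over fru and the 2 tested peaks on either side, up to 15 per direction with the largest change among called peaks whose groups did not overlap, the called genes of the lists, up to 4 per list, and runs of at least 5 called peaks. Further peaks, that over ry among them, were named after their values were seen. The members and lists were chosen with earlier results of these data known. Replicates are biological replicates per the labels' protocols. Same-numbered libraries of the 12 did not deviate together (residual correlations -0.06 to 0.11), so numbers were not used as pairs. Reads are not independent molecules, and depth is given for reads in peaks alone.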

Additional observations from a re-analysis of the deposited data

Results flagged for a closer look

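Among 140 sets of 6 libraries, 1 genotype at 1 of 71 named peaks, 10 held a library set apart from the other 5 by more than Dixon's critical share of the range, and chance gives about 1 in 20. At the strongest fru peak fru SH replicate 2 had 694, against 479 to 540 in the other fru libraries, and remained below every CS library. At the fru peak from 18434124 to 18437295, which was not called, CS GH replicate 3 had 169.9, against 130.1 to 138.9. At Nlg1, fru SH replicate 2 had 275 at the strongest peak and CS SH replicate 2 had 249 at the peak from 7689116 to 7694109. CS SH replicate 3 was the lowest at TwdlV, with 109.8. PK1-R stood at 261 in fru SH replicate 2, above the other 5 fru libraries. At the yellow peak from 359650 to 361132 fru GH replicate 1 had 48.2, and at lncRNA:flam CS GH replicate 1 had 63.4. The peak on X from 20187697 to 20188177 had 0.958 in fru SH replicate 3 and 0 in the other fru libraries. At the 2R peak from 5057204 to 5057954 fru SH replicate 3 had 33.5, and the peak was not called without it.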

How the results depend on the processing

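No peak called between fru and CS reversed its direction under any alternative run. With a minimum mean of 50, which left 13910 peaks, 124 were called, 52 of them higher, with 43 in GH, 53 in SH and 158 against the other mutants. A fit of the 12 fru and CS libraries alone called 430, 196 higher and 234 lower, with 122 in GH and 152 in SH, and could not be made against the other mutants. Without the 3 libraries of wide spread 441 were called, 211 higher and 230 lower, with 133 in GH and 164 in SH. With the spread of each library as a covariate the count was 411, 261 higher and 150 lower, with 208 in SH. In SH edgeR called 56 and limma on the 28 libraries of the count tests, an alternative chosen after seeing the data, 55. The cause of these differences was not tested. Leaving out 1 library at a time gave 162 to 211 called, 90 to 123 higher, 70 to 96 lower, 45 to 78 in GH, 55 to 85 in SH and 230 to 277 against the other mutants. Quantile normalization called 114 higher and 125 lower, edgeR 107 and 74, and DESeq2 128 and 92. With the replicate number as a block 244 were called (131 higher, 113 lower), 80 in GH, 98 in SH and 292 against the other mutants, and same-numbered libraries shared only a number. Counts with a pseudocount of 0.5 or 5, no filter or TMM rescaling lay between 216 and 237. The H3K4me3 count of 32 was the same with an overlap of at least 50% of the shorter peak. Depth, 3007711 to 4544223 reads in peaks in the 12 fru and CS libraries, limits weak peaks, and 3 libraries per housing limit the test of the difference between housings.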

Other observations

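Deposited peaks on unplaced sequence also differed between fru and CS. One, on 211000022278208 from 696 to 2898, had values of 0 to 3.12 (median 0.452) in CS, with 3 of 6 libraries at 0, and 91.2 to 120.3 (median 106) in fru (adjusted p = 1.33e-10, limma), and the dsx mutant was called against the same CS libraries too (adjusted p = 5.27e-10). A second, on the sequence named 211000022280519 from 723 to 3401, had a mean of 107 ± 20.1 in CS and 757 ± 39.8 in fru (log2 change 2.83, SD over 6 libraries each, adjusted p = 4.06e-18, limma), and the 6 fru libraries lay above all other libraries. H3K4me3 there went from 41.6 ± 11.1 to 482 ± 38.3 (log2 change 3.54, adjusted p = 7.78e-35). Another, on 211000022280492 from 397 to 1467, rose from 125 ± 20.6 to 269 ± 34.8 (log2 change 1.11, adjusted p = 0.00298), while the Or47b, Or67d and dsx mutants changed by -0.75, -0.14 and -1.50 relative to the same CS libraries. All 3 were chosen after their values were seen, and their place in the genome is not known here.

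Other genes outside the lists were called as well. pdm2, a POU-domain transcription factor of neuroblasts, fell on 2L from 275 ± 34.6 to 180.1 ± 22.3 (log2 change -0.61, adjusted p = 0.000175), and H3K4me3 at this peak changed by -0.96 (adjusted p = 0.0016). The Or47b, Or67d and dsx mutants stood at -0.65, -0.07 and -0.64 relative to CS there. Tdg on 4, which encodes a DNA glycosylase, fell from 339 ± 26.1 to 179 ± 17.997 (log2 change -0.92, adjusted p = 2.5e-08), with -0.39, -0.76 and -1.10 in the same 3 mutants. CG2747 on 3R fell from 574 ± 37.3 to 406 ± 19.7 (log2 change -0.50, adjusted p = 0.0014) and differed from the other mutants by -0.35 (adjusted p = 0.00578). These 3 genes were named after their values were seen.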
